A study of Homo sapiens with 2 samples.

Results

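The KLF transcription factors were examined in 1 culture of HCT116-CPEB4 cells and 1 culture of HCT116-GFP cells. The members are 8 genes taken by name, KLF3, KLF4, KLF5, KLF6, KLF9, KLF10, KLF11 and KLF13, out of 13704 genes measured. Every probe set annotated to one of them alone was read on both arrays, which gave 25 probe sets of the 41091 that carry a single gene name. HCT116 is a human colorectal cancer cell line. HCT116-CPEB4 cells were made to over-express CPEB4 through a lentivirus system, and HCT116-GFP cells carry the wild-type genotype label. CPEB4 is an RNA-binding protein that acts on poly(A) tails and translation. Both lines were kept in the same serum-containing medium. The promoter that drives CPEB4, whether a line is 1 clone and whether HCT116-GFP cells received a vector are not stated in the labels. Total RNA was labelled with biotin and hybridised to 1 array for each line. With 1 array for each group there is no replicate, no spread between cultures and no test, and every difference below describes these 2 arrays.

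KLF proteins bind GC-rich and CACCC sequences in DNA through zinc fingers at the carboxyl end, which are much alike across the family. They differ in the rest of the protein, which recruits co-activators or co-repressors. In the gut, KLF4 is known from the differentiated, non-dividing cells of the epithelium and KLF5 from the dividing cells of the crypt. KLF6 is known as a growth-restraining factor with several splice forms, KLF9 as a gene induced by glucocorticoids and thyroid hormone, and KLF10 and KLF11 as early genes of the TGF-beta response. KLF3 is a repressor that works through the CtBP co-repressors, and KLF13 was described as a regulator of the chemokine gene CCL5 in T cells.

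The promoters of KLF9, KLF4, KLF6 and KLF13 are printed because all of their probe sets with both arrays at or above the dim filter, an intensity of 60.8, read lower on the array labelled HCT116-CPEB4. The sequences are from RefSeq (GRCh38.p14), the 250 bases before the annotated start, 5′ to 3′ on the gene's strand. Capitals mark 3 motifs on either strand. The GC box was searched as GGGCGG. The CACCC box was searched as CCACCC, and the CCAAT box by the letters of its name.
KLF9, chr9:70414658-70414907, minus strand: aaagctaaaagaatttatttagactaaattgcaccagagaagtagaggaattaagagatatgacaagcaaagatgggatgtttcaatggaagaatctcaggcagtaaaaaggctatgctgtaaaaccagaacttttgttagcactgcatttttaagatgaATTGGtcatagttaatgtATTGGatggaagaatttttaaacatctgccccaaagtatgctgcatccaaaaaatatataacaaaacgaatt
KLF4, chr9:107489770-107490019, minus strand: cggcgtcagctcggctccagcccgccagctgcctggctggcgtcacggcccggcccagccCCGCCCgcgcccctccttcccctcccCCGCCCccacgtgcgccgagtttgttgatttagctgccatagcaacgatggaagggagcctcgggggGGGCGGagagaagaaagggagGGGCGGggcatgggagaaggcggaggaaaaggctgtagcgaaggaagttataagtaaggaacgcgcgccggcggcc
KLF6, chr10:3785210-3785459, minus strand: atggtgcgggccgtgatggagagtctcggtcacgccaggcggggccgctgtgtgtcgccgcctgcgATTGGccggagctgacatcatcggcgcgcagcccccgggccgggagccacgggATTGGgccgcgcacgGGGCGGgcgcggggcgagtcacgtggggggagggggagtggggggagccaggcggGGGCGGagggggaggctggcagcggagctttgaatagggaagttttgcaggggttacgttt
KLF13, chr15:31326585-31326834, plus strand: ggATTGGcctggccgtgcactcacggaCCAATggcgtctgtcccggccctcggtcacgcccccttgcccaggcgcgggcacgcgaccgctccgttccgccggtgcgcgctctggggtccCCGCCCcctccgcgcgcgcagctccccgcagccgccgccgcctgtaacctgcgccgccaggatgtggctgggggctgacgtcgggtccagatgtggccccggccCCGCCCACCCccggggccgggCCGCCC
Promoter windows of 300 bases, reaching 50 bases past the start, were matched for 6 of the 8 members; KLF3 and KLF10 had no entry. Among 35116 such windows in the table, 45% hold a GC box, 34.3% a CACCC box and 34.6% a CCAAT box. The KLF4 window has 4 GC boxes and is 69.0% G or C. The KLF6 window has 2 GC boxes and 2 CCAAT boxes at 70.7% G or C. KLF13 has 3 GC boxes, 2 CCAAT boxes and 1 CACCC box at 78.3% G or C, and its CACCC box shares 2 bases with a GC box. KLF9 stands apart from these in base composition, at 32.7% G or C against a median of 58.7% over all windows, with 2 CCAAT boxes and neither of the other motifs. KLF5 and KLF11 have 2 annotated starts each, with 0 and 2 GC boxes for KLF5 and 2 and 7 for KLF11. The first KLF5 window is also under the median, at 40.7% G or C, and the second is at 71.3%. A match of letters is not a binding site, and none of these windows was measured on the arrays.

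The arrays had a median intensity of 61.1 for HCT116-CPEB4 and 60.6 for HCT116-GFP over 54675 probe sets. The 4 probe sets of CPEB4 itself all read lower on the array with the HCT116-CPEB4 label. The lowest log2 difference, −1.52, came from a probe set under the dim filter on both arrays, at 20.95 in HCT116-CPEB4 and 60.11 in HCT116-GFP cells. The brighter ones lay between −0.44 and −0.08. The directions below therefore rest on the labels alone. Of 8 colon epithelium markers, 7 reached the dim filter on at least 1 array, with a summed intensity of 88460 on the HCT116-CPEB4 array and 87560 on the HCT116-GFP array. EPCAM, CDH1 and the keratins KRT8, KRT18 and KRT19 were bright, while LGALS4 stayed under the filter and VIL1 and CDX2 were dim. The 4 blood markers summed to 544 in HCT116-CPEB4 and 687 in HCT116-GFP cells, the 4 fibroblast markers to 1440.0 in HCT116-CPEB4 and 1066 in HCT116-GFP cells, and the 4 endothelial markers to 131 in HCT116-CPEB4 and 232 in HCT116-GFP cells. COL1A1 supplied most of the fibroblast sum, at 1292 in HCT116-CPEB4 and 949 in HCT116-GFP cells. Of the blood markers, CD79A and HBB reached the filter on both arrays, and PTPRC and CD3E on neither. Of the fibroblast markers, COL1A1 reached it on both arrays, DCN on the HCT116-CPEB4 array alone, and COL1A2 and COL3A1 on neither. Of the endothelial markers, PECAM1 reached it on both arrays, and VWF, CDH5 and KDR on neither. LGALS4 of the colon epithelium list was also under it, so the filter alone does not separate these cell types. Whether other cell types were present was not tested. The 3′ to 5′ signal ratio of the ACTB control, a measure of RNA integrity, was 10.3 on the HCT116-CPEB4 array and 8.23 on the HCT116-GFP array, and that of GAPDH was 1.04 in HCT116-CPEB4 and 0.989 in HCT116-GFP cells. Their part in the KLF values was not tested.

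The KLF genes differed little between the lines. Log2 differences were taken as HCT116-CPEB4 minus HCT116-GFP, and a gene is represented by the brightest of its kept probe sets, by the mean log2 intensity of both arrays. None of the 8 members reached a 2-fold difference, where 7.4% of all 13704 genes did, and none reached 1.5-fold, where 16.5% of all genes did. The share past 2-fold varied with brightness. When kept probe sets were sorted by mean log2 intensity into 4 brightness bands of equal size, 32.1% of the dimmest band passed 2-fold, against 0.816% in band 3 and 0.224% in band 4, the brightest, and the probe sets that represent the 8 members all lie in bands 3 and 4. A count of 0 of 8 is therefore close to the background of such bright probe sets. KLF9, KLF4, KLF13, KLF3 and KLF6 lay below 0, and KLF10, KLF5 and KLF11 above it, 5 against 3, where 49.9% of all genes lay below 0. Their median was −0.15 (0.899-fold), against 0.00090 over all genes. Without suffixed probe sets, those whose names end in _s_at, _x_at or _a_at, 4 members were left and their median was 0.038. Fewer cells expressing a gene and less RNA per cell cannot be told apart in such cultures.

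Of the 25 probe sets, 20 passed the dim filter, which asks that the higher of the 2 intensities reach 60.8, the 50th percentile of all values. Both arrays were at or above the filter for 18 of them and 1 array for the other 2. Of the 20, 13 lay below 0 and 7 above, where 49.6% of the 25010 kept probe sets lay below 0. The 2 with 1 array at the filter, of KLF9 and KLF11, reached it on the HCT116-CPEB4 array alone, so they could only lie above 0. All 13 below 0 had both arrays at or above the filter. A single KLF probe set, a dim one of KLF9, passed 2-fold, where 9.08% of kept probe sets did. Under the filter lay 5 probe sets, of KLF6, KLF9 and KLF13.

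**Figure D1:**
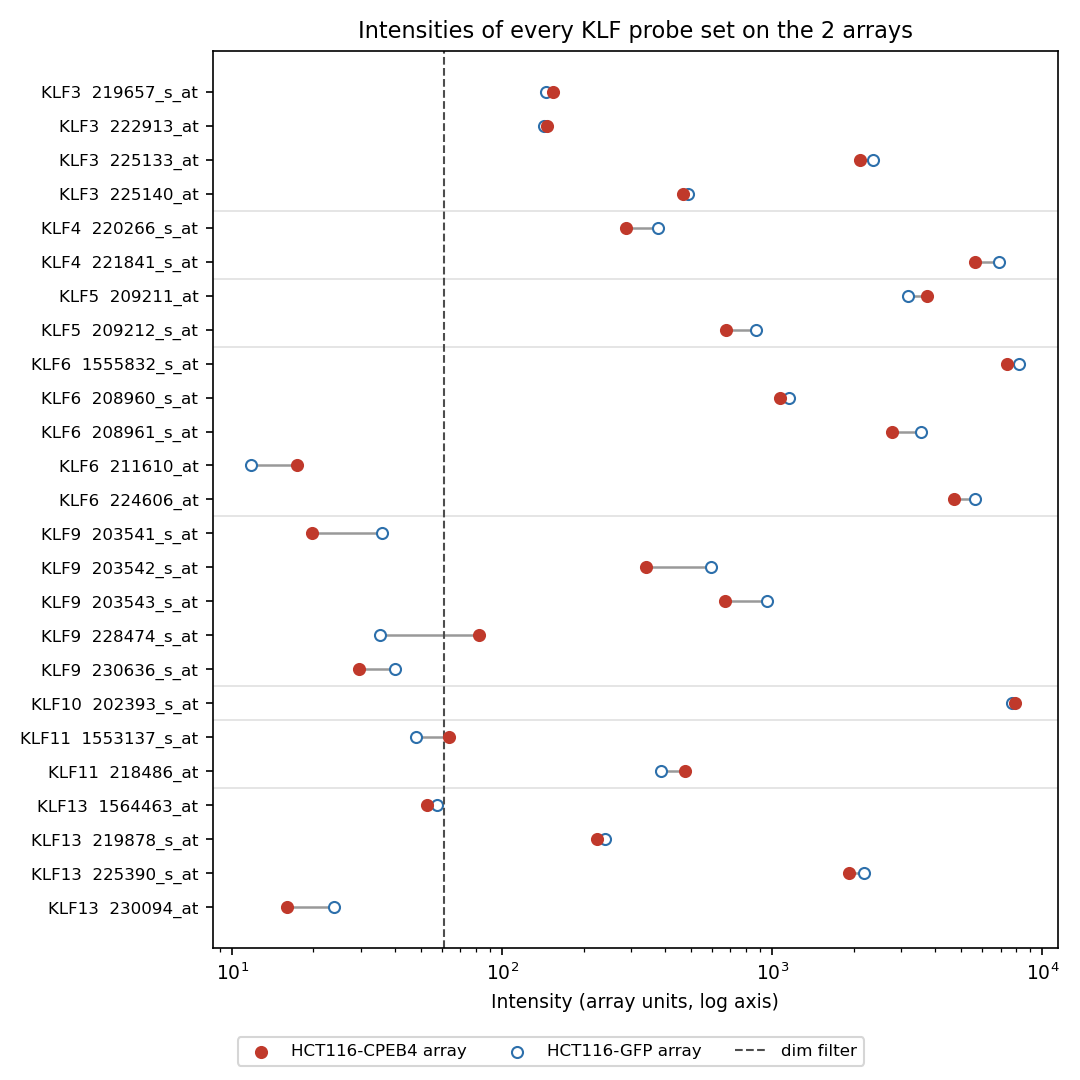
Intensity of each of the 25 KLF probe sets (array units, log axis) on the HCT116-CPEB4 array (filled red) and the HCT116-GFP array (open blue), with grey lines joining the 2 values and a dashed line at the dim filter of 60.8. The pairs lie close together at bright probe sets, and the widest separation right of the filter is that of KLF9 203542_s_at, at 340 in HCT116-CPEB4 and 595 in HCT116-GFP cells.

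KLF9 had the lowest difference of the 8. Its brightest probe set, 203543_s_at, read 669 on the HCT116-CPEB4 array and 956 on the HCT116-GFP array, a log2 difference of −0.52 (0.700-fold). A second bright probe set, 203542_s_at, read 340 in HCT116-CPEB4 and 595 in HCT116-GFP cells, a difference of −0.81 (0.571-fold). Both bright probe sets were thus lower on the array labelled HCT116-CPEB4. In brightness band 3, where both of these lie, the central 90% of differences ran from −0.48 to 0.53. They stood at percentiles 4.08 and 0.72 of that band.

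The 3 remaining KLF9 probe sets were dim and did not agree in sign. The probe set 228474_s_at read 82.0 on the HCT116-CPEB4 array and 35.3 on the HCT116-GFP array (1.22), with the HCT116-GFP value under the dim filter. That reading could only be above 0, and it falls in the dimmest band, where the central 90% ran from −2.33 to 2.32. The probe sets 203541_s_at and 230636_s_at were under the filter on both arrays. The first of them read 19.7 in HCT116-CPEB4 and 36.0 in HCT116-GFP cells (−0.87), and the other read 29.5 in HCT116-CPEB4 and 40.2 in HCT116-GFP cells (−0.45). With the mean over kept probe sets the KLF9 difference was −0.04, since the dim probe set weighs there as much as the bright ones.

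KLF4, which restrains division and promotes differentiation in the gut epithelium, was lower at both of its probe sets. The brighter, 221841_s_at, read 5650.2 on the HCT116-CPEB4 array and 6890.4 on the HCT116-GFP array (−0.29, 0.820-fold). The other, 220266_s_at, read 288 in HCT116-CPEB4 and 377 in HCT116-GFP cells (−0.39, 0.764-fold). The gap between them was 0.10. These differences stood at percentiles 11.8 and 16 of their brightness bands, inside the central 90% of both.

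KLF5, the factor of dividing crypt cells, gave no settled direction. Its brightest probe set, 209211_at, read 3744 on the HCT116-CPEB4 array and 3175 on the HCT116-GFP array (0.24, 1.18-fold higher). The second, 209212_s_at, read 677 in HCT116-CPEB4 and 868 in HCT116-GFP cells (−0.36, 0.780-fold). The 2 probe sets therefore differed in sign, with a gap of 0.60. Among 2828 genes whose second probe set is also bright, with a mean log2 intensity at or above that of 377 units, the median gap was 0.18 and 5.3% had a gap as wide as that of KLF5. The mean over both KLF5 probe sets was −0.06. The part of the transcript that each probe set reads was not used here.

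KLF6 was lower at each of its 4 kept probe sets, by small amounts. The brightest, 1555832_s_at, read 7422 on the HCT116-CPEB4 array and 8207 on the HCT116-GFP array (−0.14). The probe set 208961_s_at read 2764 in HCT116-CPEB4 and 3556 in HCT116-GFP cells (−0.36), 224606_at read 4711 in HCT116-CPEB4 and 5613 in HCT116-GFP cells (−0.25), and 208960_s_at read 1065 in HCT116-CPEB4 and 1157 in HCT116-GFP cells (−0.12). The values on the HCT116-CPEB4 array were thus between 0.777-fold and 0.921-fold of those on the HCT116-GFP array. A dim probe set, 211610_at, read 17.4 in HCT116-CPEB4 and 11.8 in HCT116-GFP cells, both under the filter. The lowest of the 4, at percentile 6.91 of its brightness band, was still inside the central 90%, which ran from −0.41 to 0.39 in the brightest band.

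The TGF-beta-inducible pair KLF10 and KLF11, repressors that recruit the SIN3 co-repressor, showed no lower value at a kept probe set. KLF10 has a single probe set, 202393_s_at, which read 7930.3 on the HCT116-CPEB4 array and 7740.0 on the HCT116-GFP array (0.04, 1.02-fold). KLF11 read 475 in HCT116-CPEB4 and 388 in HCT116-GFP cells (0.29, 1.22-fold) at its brightest probe set, 218486_at. Its other probe set, 1553137_s_at, read 63.5 in HCT116-CPEB4 and 47.8 in HCT116-GFP cells (0.41). The HCT116-GFP value was under the dim filter, so the filter fixed the sign of this reading. KLF11 was the highest of the 8 members, at percentile 80.2 of all genes. With 1 probe set, KLF10 has no second reading on the array.

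KLF13 and KLF3 differed by small amounts, as KLF6 did. KLF13, whose protein also binds SIN3, read 1915 on the HCT116-CPEB4 array and 2181 on the HCT116-GFP array (−0.19) at 225390_s_at, and 219878_s_at read 225 in HCT116-CPEB4 and 240 in HCT116-GFP cells (−0.09). Both kept probe sets were lower, and both lay inside the central 90% of their brightness bands. Its 2 other probe sets were under the filter. The probe set 1564463_at read 52.9 in HCT116-CPEB4 and 57.2 in HCT116-GFP cells, and 230094_at read 16.03 in HCT116-CPEB4 and 23.7 in HCT116-GFP cells. KLF3 had 4 kept probe sets that straddled 0. The brightest, 225133_at, read 2110.0 in HCT116-CPEB4 and 2361 in HCT116-GFP cells (−0.16), and 225140_at read 467 in HCT116-CPEB4 and 487 in HCT116-GFP cells (−0.06). The dimmer 219657_s_at read 154 in HCT116-CPEB4 and 146 in HCT116-GFP cells (0.09), and 222913_at read 146 in HCT116-CPEB4 and 142 in HCT116-GFP cells (0.04). The 4 probe sets of KLF3 spanned 0.25 in all, narrower than the 2 of KLF5.

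**Figure D2:**
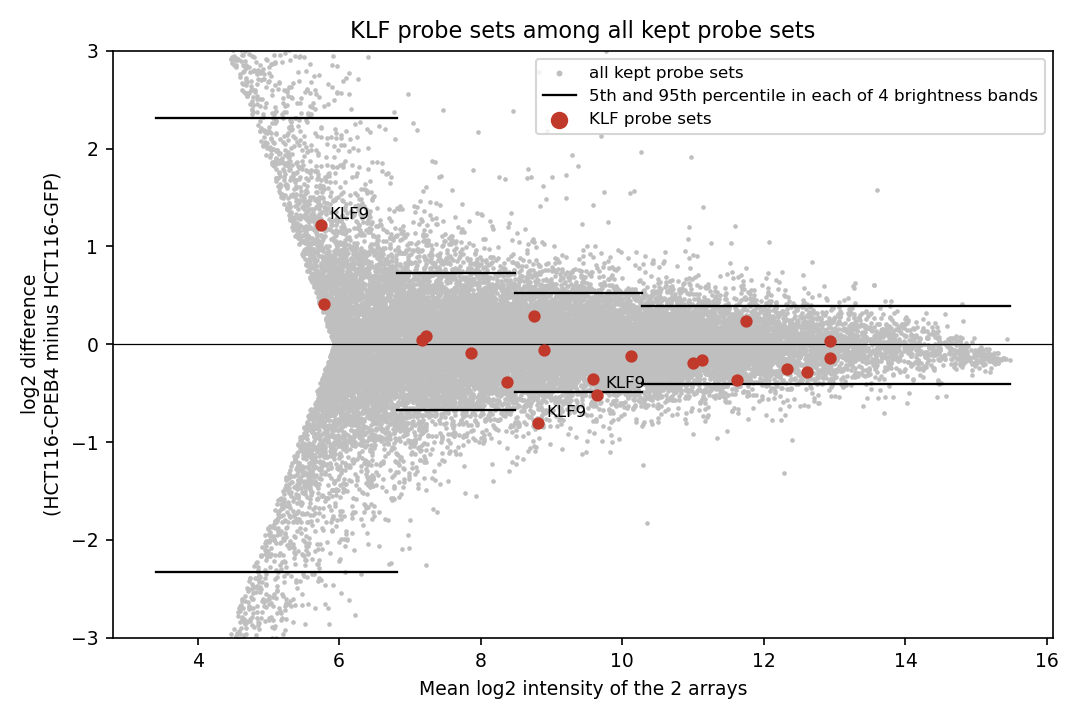
Log2 difference (HCT116-CPEB4 minus HCT116-GFP) against the mean log2 intensity of the 2 arrays for all kept probe sets (grey) and the 20 kept KLF probe sets (red), with black lines at the 5th and 95th percentiles in each brightness band. KLF9 is the 1 member outside those lines, at −0.52 and −0.81 among the 20 KLF points, and its dim point, at 1.22, lies in the dimmest band. By definition the lines enclose the central 90% of all kept probe sets of a band, and the rest lie outside. The 279 probe sets beyond a difference of 3 are not drawn.

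From lowest to highest, the 8 genes ran in the order KLF9 (−0.52), KLF4 (−0.29), KLF13 (−0.19), KLF3 (−0.16), KLF6 (−0.14), KLF10 (0.04), KLF5 (0.24) and KLF11 (0.29). Neighbours in this order lay closer together than 0.18, the median gap between 2 bright probe sets of a gene, except KLF9 and KLF4, KLF6 and KLF10, and KLF10 and KLF5. Over the alternatives, 9 for KLF3, KLF5, KLF6 and KLF11 and 8 for the genes with suffixed probe sets alone among those kept, KLF4 ran from −0.34 to −0.27, KLF11 from 0.27 to 0.35, KLF13 from −0.19 to −0.14 and KLF6 from −0.25 to −0.13. KLF3 ran from −0.17 to −0.02 and KLF10 from 0.03 to 0.06. KLF9 ran from −0.54 to −0.04 and KLF5 from −0.06 to 0.25, both moved by the mean over probe sets.

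**Figure D3:**
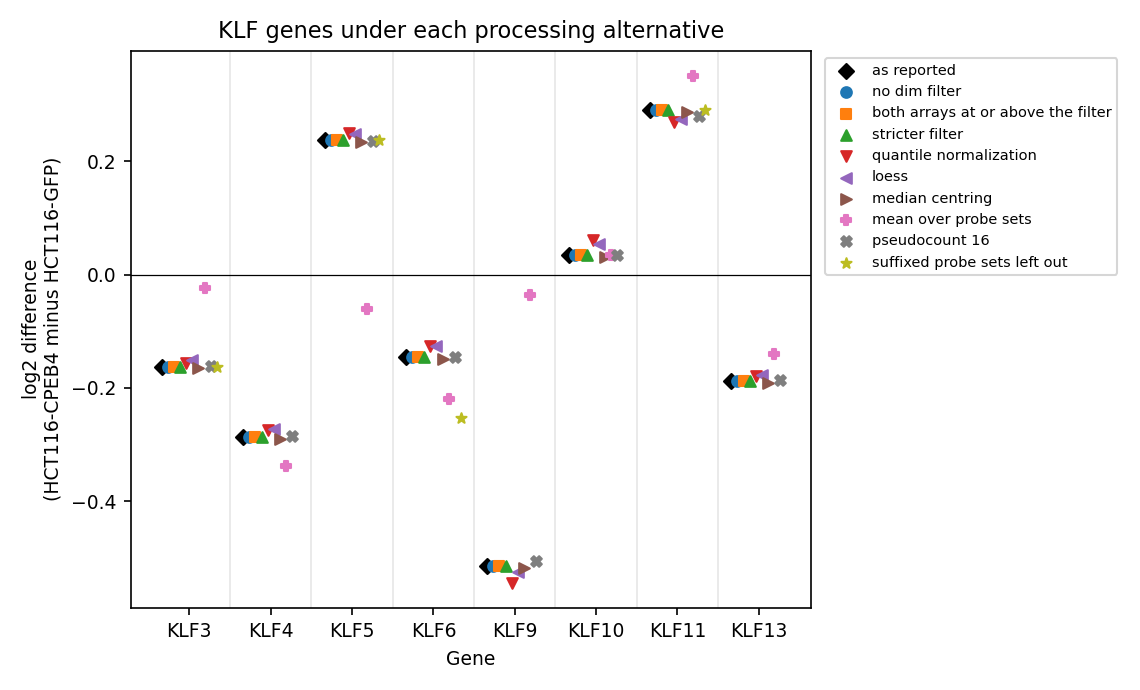
Log2 difference (HCT116-CPEB4 minus HCT116-GFP) of each KLF gene as reported (black diamonds) and under each processing alternative (other symbols). The mean over probe sets moves KLF9 to −0.04, KLF5 to −0.06 and KLF3 to −0.02, and KLF6 lies at −0.25 without suffixed probe sets.

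The rest of the KLF and SP family, whose proteins share the same type of zinc fingers, also went both ways. Of 19 other family genes, 14 were measured, 6 above 0 and 8 below, where 49.9% of all genes lay below 0, with a median of −0.07 that kept its sign in all 9 alternatives. KLF2, a factor best known from endothelium and resting T cells, read 2112 on the HCT116-CPEB4 array and 2892 on the HCT116-GFP array (−0.45), and its second probe set read 119 in HCT116-CPEB4 and 258 in HCT116-GFP cells (−1.11). Both KLF2 readings were lower, as at the bright probe sets of KLF9. The WNT-responsive SP5 read 77.0 in HCT116-CPEB4 and 112 in HCT116-GFP cells (−0.54), and SP8 read 63.4 in HCT116-CPEB4 and 82.6 in HCT116-GFP cells (−0.38), both dim.

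SP1, the general GC-box factor, read 2045 on the HCT116-CPEB4 array and 2355 on the HCT116-GFP array (−0.20), with all 3 kept probe sets lower. The lowest of them (−0.30) reached the filter on the HCT116-GFP array alone, so the filter fixed its sign. SP3 differed by −0.16, with a dim probe set at 0.70, and SP4 by −0.10. KLF15 (−0.20), KLF7 (−0.04), KLF12 (0.10), SP6 (0.11) and SP2 (0.38) were within 1.5-fold. Kept probe sets of KLF7 (−0.30 to 0.51) and KLF12 (−0.13 to 0.13) lay on both sides of 0. KLF16 and KLF14 had probe sets of opposite sign, 0.23 and −2.24 for KLF16 and 0.61 and −3.28 for KLF14. Each negative reading was under the filter on the HCT116-CPEB4 array, so the filter fixed its sign. The directions of KLF16 and KLF14 are not settled. KLF17, at 65.6 in HCT116-CPEB4 and 5.05 in HCT116-GFP cells (3.70), was the 1 family gene of these 14 past 2-fold, where 7.4% of all genes were, with its HCT116-GFP value far under the filter. KLF1, KLF8 and SP7 were under the filter on both arrays.

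**Figure D4:**
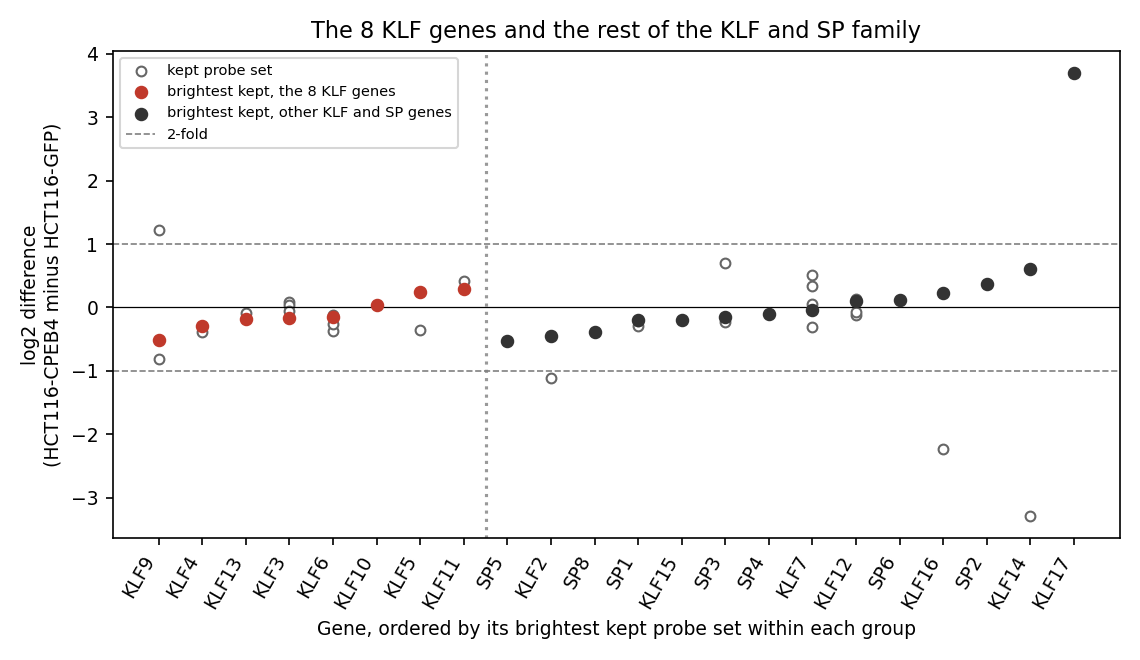
Log2 difference (HCT116-CPEB4 minus HCT116-GFP) of the 8 KLF genes (red) and of 14 other KLF and SP genes (black) at the brightest kept probe set, with every kept probe set as an open circle and dashed lines at 2-fold. The red points run from −0.52 to 0.29, and among the black points KLF17 alone, at 3.70, lies past 2-fold.

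Genes for the co-regulators that KLF proteins recruit were near even. Of 18 measured genes, 5 lay above 0 and 13 below (7 and 11 after loess), where 49.9% of all genes lay below 0. The median was −0.06, and none reached 2-fold, where 7.4% of all genes did. Of the 18, 16 had a kept probe set of at least 377 units on 1 array or both, as had most measured genes of each list below. Only 0.816% of kept probe sets in brightness band 3 and 0.224% in band 4 passed 2-fold. For genes that reach 377 units, a count of 0 is therefore close to the background of bright probe sets. In the TGF-beta list below, 8 of 14 measured genes reached it. Among dimmer kept probe sets, 3.15% of band 2 and 32.1% of band 1 passed 2-fold. The SIN3 scaffold SIN3A, a partner of KLF9, KLF10, KLF11 and KLF13, read 514 on the HCT116-CPEB4 array and 637 on the HCT116-GFP array (−0.31), with all 3 probe sets lower. Its paralogue SIN3B was at 0.24 with probe sets down to −0.52, and SAP30, a subunit of the same complex, at 0.27 with probe sets down to −0.94. CTBP1, the co-repressor of KLF3, differed by −0.20, with 4 kept probe sets from −2.965 to −0.14. PARP1 differed by −0.26, and FHL3, another partner of KLF3, by 0.11.

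Ubiquitin ligases and deubiquitinases described as acting on KLF proteins had 9 of 14 measured genes above 0 and 5 below, where 49.9% of all genes lay below 0, and none past 2-fold, where 7.4% of all genes were. The median was 0.05 but turned to −0.17 when a gene's kept probe sets were averaged and to −0.09 when suffixed probe sets were dropped, so the list has no settled direction. USP11 read 1050.0 on the HCT116-CPEB4 array and 684 on the HCT116-GFP array (0.62) at its single kept probe set. BTRC was at 0.49 and ATXN3 at 0.31, each with probe sets of the other sign. SIAH1 (−0.47), USP3 (−0.30) and USP9X (−0.17) were lower at every kept probe set.

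Genes listed as upstream regulators of KLF4 and KLF5 went both ways, with 7 above 0 and 5 below of 12 measured, where 49.9% of all genes lay below 0. SRF, the serum response factor, read 293 on the HCT116-CPEB4 array and 456 on the HCT116-GFP array (−0.64). Its partner ELK1 differed by −0.80, with its other probe set at −0.13, and EGR1, a target of both, by −0.72. NOTCH1 read 484 in HCT116-CPEB4 and 255 in HCT116-GFP cells (0.93), and the NOTCH target HES1 read 1072 in HCT116-CPEB4 and 736 in HCT116-GFP cells (0.54). LEF1, a WNT effector, read 115 in HCT116-CPEB4 and 18.9 in HCT116-GFP cells (2.60), and passed the filter on the HCT116-CPEB4 array alone. It was the 1 gene of the 12 past 2-fold, near the 7.4% of all genes. In the dimmest brightness band, where LEF1 lies, 32.1% of kept probe sets passed 2-fold. The list median was 0.13, and −0.04 under the stricter filter of 377 units.

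Genes of the glucocorticoid and nuclear receptor response, among which KLF9 is an early target, were more often below 0. Of 12 measured, 9 lay below 0 and 3 above, where 49.9% of all genes lay below 0, and the median was −0.28, with none past 2-fold, where 7.4% of all genes were. CEBPD, a transcription factor gene, read 449 on the HCT116-CPEB4 array and 723 on the HCT116-GFP array (−0.69), and the kinase gene SGK1 read 421 in HCT116-CPEB4 and 607 in HCT116-GFP cells (−0.53). TSC22D3, the glucocorticoid-induced leucine zipper, was at −0.49 with a second probe set at 0.97. FKBP5, a widely used marker of the glucocorticoid response, was even at 4402 in HCT116-CPEB4 and 4393 in HCT116-GFP cells. DUSP1 was at 0.08 with a second probe set at 0.76, and the receptor RXRA at 0.73 with a second probe set at −0.23. With the mean over probe sets 7 lay below 0 and 5 above, with a median of −0.20.

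Early genes of the TGF-beta response, the group of KLF10 and KLF11, had 10 of 14 measured members below 0, where 49.9% of all genes were, and a median of −0.13. SMAD7, the feedback inhibitor, was at 205 on the HCT116-CPEB4 array and 132 on the HCT116-GFP array (0.64), and JUNB at 0.42. LTBP2 (−0.95) and PMEPA1 (−0.62) had a second probe set of the opposite sign. The epithelial-mesenchymal regulators SNAI1 (−0.43) and SNAI2 (0.23) were dim. None passed 2-fold, where 7.4% of all genes did. Averaging a gene's kept probe sets left 8 of the 14 below 0, with a median of −0.03. LTBP2 and SNAI1 reached the dim filter on the HCT116-GFP array alone, so the filter fixed their sign. With both arrays at or above the filter, 8 of 12 genes lay below 0, with a median of −0.07.

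Genes described as targets of KLF4 showed no common direction, with 6 above 0 and 5 below of 11 measured, where 49.9% of all genes lay below 0, and a median of 0.05. None passed 2-fold, where 7.4% of all genes did. That median was −0.21 without the dim filter and −0.01 without suffixed probe sets. CCND1, the G1 cyclin, read 7067 on the HCT116-CPEB4 array and 6098 on the HCT116-GFP array (0.21), and CCNB1 was at 0.22 with a probe set at −0.16; both also stand in the KLF5 list. VDR was at 0.49 with probe sets from −1.73 to 0.76. The differentiation keratin KRT20 read 163 in HCT116-CPEB4 and 216 in HCT116-GFP cells (−0.41). The adherens junction gene CDH1 read 2954 in HCT116-CPEB4 and 3709 in HCT116-GFP cells (−0.33). The dim SPRR1A was at −0.46 and reached the filter on the HCT116-GFP array alone, so the filter fixed its sign.

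Genes described as targets of KLF5 had 9 of 13 measured members below 0, where 49.9% of all genes were, and a median of −0.10. PDGFA, a growth factor, read 945 on the HCT116-CPEB4 array and 1661 on the HCT116-GFP array (−0.81), and −0.85 at its other probe set. PIM1 was at −0.48, and CDK1 at −0.55 with probe sets up to 0.14. TNFAIP2 read 311 in HCT116-CPEB4 and 157 in HCT116-GFP cells (0.99), just under 2-fold. No gene of this list passed 2-fold, where 7.4% of all genes did.

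Genes described downstream of KLF3, KLF6, KLF11 or KLF13 had 8 of 12 measured members below 0, where 49.9% of all genes were, and a median of −0.14. CCL5, the chemokine gene named above for KLF13 and also induced by interferon, read 292 on the HCT116-CPEB4 array and 64.3 on the HCT116-GFP array (2.19), with its 3 probe sets between 1.98 and 4.43. It was the 1 gene of this list of 12 past 2-fold, near the 7.4% of all genes. In brightness band 2, where CCL5 lies, 3.15% of kept probe sets passed 2-fold. KLF13 itself was at −0.19. ATF3, described as a KLF6 target, was at 0.32, and E2F1 at 0.44 with a second probe set at 2.003. MAOA, a KLF11 target, read 780 in HCT116-CPEB4 and 1053 in HCT116-GFP cells (−0.43), PLAUR was at −0.36 and PPARG at −0.35.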

How the data were processed

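Intensities are those the authors deposited, 1 linear value for each of 54675 probe sets on each of 2 arrays. The submitters' processing notes name Partek, with no version or role. Background correction, summarisation and scaling were not stated (not given in the sources used here), and the 2 arrays have the same trimmed mean, 500.1, with 2% removed at each end. Precision is limited by the number of arrays. Probe sets were named through GEO's platform annotation, with symbols updated to RefSeq, and 1801 with more than 1 gene and 11777 unnamed ones were not used. Log2 was taken without a pseudocount, and probe sets whose higher intensity was under the 50th percentile, 60.8, were removed. A gene took its brightest kept probe set, and a difference of 2-fold is a rule of size. The members and the 9 gene lists were chosen with earlier results of these data known. All 8 members were named with every probe set, all measured genes of the family list, and the 3 highest and 3 lowest genes of each other list. Processing was tested on simulated arrays. Alternatives changed the filter, scaling, probe set choice, pseudocount and fold. Promoter motifs were searched by exact match. Python 3.11.15, pandas 2.3.3 and statsmodels 0.14.6 were used.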

Additional observations from a re-analysis of the deposited data

How the results depend on the processing

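No KLF gene reached 2-fold under any of the 9 alternatives, 1 of which measured 4 of them, nor 1.5-fold in the reported setting. The median of the KLF genes, −0.15, lay between −0.16 and −0.05 under the 8 alternatives that kept all 8 genes. It was 0.038, on the other side of 0, without probe sets whose names end in _s_at, _x_at or _a_at, which left 4 genes (KLF3, KLF5, KLF6 and KLF11), since KLF4, KLF9, KLF10 and KLF13 have no other kept probe set. Of 68 values of single members, 66 moved by less than 0.27, the median gap between the 2 brightest probe sets of a gene. The other 2 moved by more, KLF9 to −0.04 and KLF5 to −0.06 with the mean over probe sets. Part of the count of 66 was fixed in advance. Alternatives that changed only the filter kept each member's brightest probe set, so those values could not move. Median centring shifts all values alike, and KLF10, with 1 probe set, cannot move with the mean. No paired analysis was possible because each group has 1 array. Signal limits the dim probe sets, since in the dimmest brightness band of kept probe sets the central 90% of differences ran from −2.33 to 2.32, against −0.41 to 0.39 in the brightest.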

Other observations

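Transcripts named for their position beside KLF genes were dim on both arrays, and they were chosen after their values were seen. KLF9-DT, a divergent transcript of the KLF9 locus, read 11.8 on the HCT116-CPEB4 array and 51.4 on the HCT116-GFP array, both under the dim filter. KLF3-AS1, the antisense transcript of KLF3, read 85.1 and 82.0 (0.05) at its brighter probe set and 6.51 and 25.0 at the other.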
